A study of Mus musculus with 13 samples.

Results

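The genes described here are 33 mouse genes of the unfolded protein response and the integrated stress response, taken from a list of ER chaperones, ER-associated degradation genes, stress sensors and ATF4 targets. Membership rests on known function, but the list was chosen with earlier results of these data known. Each gene was read on its brightest probe set that names only that gene. All 33 members were measured, among 17097 genes with such a probe set, and 31 of them were among the 10411 genes bright enough to be tested. Pdia3 and Asns were too dim, with mean log2 signals of 4.63 and 4.09 over all arrays against a filter of 4.90, the median of all probe sets' means. Eif2ak3, at 5.03, was the member just above that filter.

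The study measured quadriceps RNA of male C57Bl/6 mice aged 4 months on 13 Affymetrix arrays, 1 array per animal, under ablation or gain of function of the protein DOR. DOR is encoded by Trp53inp2, a nuclear cofactor and autophagy protein. SKM-KO muscle, in which DOR was ablated, had 3 arrays and was set against 3 arrays of the control group C. SKM-Tg muscle, the gain-of-function line, had 4 arrays and was set against 3 arrays of the control group Wt. The pairing of each line with its control was taken from the group names. The labels name neither the promoter nor the Cre driver of either line. All animals ate chow.

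When misfolded proteins build up in the endoplasmic reticulum (ER), the membrane sensors IRE1 (Ern1), PERK (Eif2ak3) and ATF6 start the unfolded protein response. IRE1 splices Xbp1 mRNA into the form that encodes an active transcription factor, and ATF6 is cleaved to release another; both raise chaperones and degradation factors. PERK phosphorylates eIF2alpha, which slows translation and favours synthesis of ATF4, the shared effector of the integrated stress response. In muscle, the ER is continuous with the sarcoplasmic reticulum, the calcium store of contraction. The arrays measured mRNA abundance only, not splicing, cleavage or phosphorylation.

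The DNA elements through which these factors act are shown for the members that hold them, and were read from sequence, not from any signal. RefSeq promoter windows (mouse build GRCm38.p6, 250 bases before to 50 after a gene's start) were found for 29 of the 33 members, in 30 windows. Both strands were searched for the ER stress response element, CCAAT and CCACG with 9 bases of any kind between them, bound by ATF6 and XBP1 with NF-Y. It was found in the windows of 8 members and in 0.1187% of all 32851 windows. The letters of the motif are in capitals, and each stretch of 39 bases is written 5′ to 3′ on the gene's own strand; a motif on the opposite strand therefore appears as its reverse complement.
Hspa5 (chr2:34772015-34772053, plus strand): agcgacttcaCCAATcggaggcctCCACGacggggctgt
Hsp90b1, first match (chr10:86705628-86705666, minus strand): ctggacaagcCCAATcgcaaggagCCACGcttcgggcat
Hsp90b1, second match (chr10:86705523-86705561, minus strand): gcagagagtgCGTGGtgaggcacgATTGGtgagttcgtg
Calr (chr8:84847065-84847103, minus strand): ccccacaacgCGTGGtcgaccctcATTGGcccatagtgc
Canx (chr11:50325790-50325828, minus strand): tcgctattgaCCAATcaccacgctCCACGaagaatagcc
Creld2 (chr15:88819510-88819548, plus strand): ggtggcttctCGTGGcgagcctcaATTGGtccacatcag
Dnajc3 (chr14:118937817-118937855, plus strand): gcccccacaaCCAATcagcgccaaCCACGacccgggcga
Pdia6 (chr12:17266481-17266519, plus strand): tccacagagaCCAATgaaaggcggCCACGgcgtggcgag
Syvn1 (chr19:6046522-6046560, plus strand): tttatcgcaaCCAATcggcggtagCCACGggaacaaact

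The compact second form of this element, ATTGG and CCACG with 1 base of any kind between them, was in the windows of 2 members, against 0.0365% of all windows, and is shown in stretches of 31 bases.
Herpud1 (chr8:94386367-94386397, plus strand): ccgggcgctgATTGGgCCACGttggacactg
Dnajb11 (chr16:22857842-22857872, plus strand): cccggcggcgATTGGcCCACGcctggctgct

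The C/EBP-ATF response element TGATGNAA, through which ATF4 acts with C/EBP partners, was in the windows of 4 members and in 3.9694% of all windows. The stretches of 28 bases below hold it on either strand.
Trib3 (chr2:152344029-152344056, minus strand): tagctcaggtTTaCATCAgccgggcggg
Chac1 (chr2:119351039-119351066, plus strand): ttccctgccgTTgCATCActcctgccag
Asns (chr6:7693215-7693242, minus strand): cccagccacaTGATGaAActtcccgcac
Herpud1 (chr8:94386307-94386334, plus strand): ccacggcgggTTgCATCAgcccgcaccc

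Herpud1 was the only one of the 29 matched members with both an ER stress element and an ATF4-type element. For 19 of the 29, neither form of the ER stress element was found. No 2 matches overlapped in a window. The XBP1-type element TGACGTGG was in no member's window and in 0.6758% of all windows. A match describes letters in a window and is no evidence that a factor binds there, and no match says nothing about the factor.

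Some arrays stood apart from their group, and those of Wt touch every value of the gain-of-function line. For each gene the main fit made 1 estimate of spread from all 13 arrays. The Wt spread therefore also enters each SE, p and interval of SKM-KO minus C. A gene was counted as departing on an array when its signal lay over 0.5 log2 from the mean of the group's other arrays. This held for 35.6% of the tested genes on Wt array 2 and 30.4% on Wt array 3, against 1.09% on Wt array 1. The shares were 3.24% to 9.26% on the SKM-Tg arrays, 0.836% to 2.67% on the SKM-KO arrays and 1.15% to 3.76% on the C arrays. Array medians ranged from 4.85 to 4.94, with 4.86 on Wt array 2 and 4.88 on Wt array 3, and the 3′ minus 5′ signal of the Gapdh controls was 0.25 on Wt array 2 and 0.28 on Wt array 3, within the range of the other arrays (0.23 to 0.30). The same measure for the actin controls was -0.21 on Wt array 2 and -0.31 on Wt array 3, against -0.29 to -0.15 on the other arrays. The pyruvate carboxylase 3′ control read 7.99 on Wt array 2 and 7.15 on Wt array 3, against 7.16 to 7.88 on the other arrays. Why the Wt arrays differed was not tested. The mean signal of 10 muscle fibre genes was 12.10 to 12.26 on all arrays. Trp53inp2 itself read 8.58, 8.79 and 8.99 in SKM-KO muscle, against 11.06, 11.19 and 11.15 in C muscle, a difference of -2.35 (SE 0.14, limma adjusted p = 3.76e-06). The same probe set read 11.11, 11.03, 11.28 and 11.24 in SKM-Tg muscle, against 11.20, 11.46 and 11.001 in Wt muscle, a difference of -0.06 (SE 0.13, limma adjusted p = 0.887), so it did not separate the gain-of-function line from its control. Whether this probe set reads the transgene's mRNA was not tested.

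Of the 31 tested members, 12 departed on Wt array 2, 8 upward and 4 downward, and 13 departed on Wt array 3, 6 upward and 7 downward. Wt array 2 was high for Eif2ak3 (0.79), Xbp1 (0.74) and Calr (0.73), and low for Hsp90b1 (-0.84), Dnajc3 (-0.76) and Canx (-0.71). On Wt array 3 the order was turned, with Hsp90b1 at 0.81 and Calr at -0.82. Wt array 1 lay between them for 27 of 31 members. On C array 1, Edem1, Sdf2l1, Manf and Ern1 lay below their other C arrays, by 1.06 log2 for Edem1. The mean of the 31 members was 7.89, 8.06 and 8.06 on the SKM-KO arrays, against 7.81, 8.05 and 8.03 on the C arrays, so array 1 was the lowest in both groups.

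**Figure D1:**
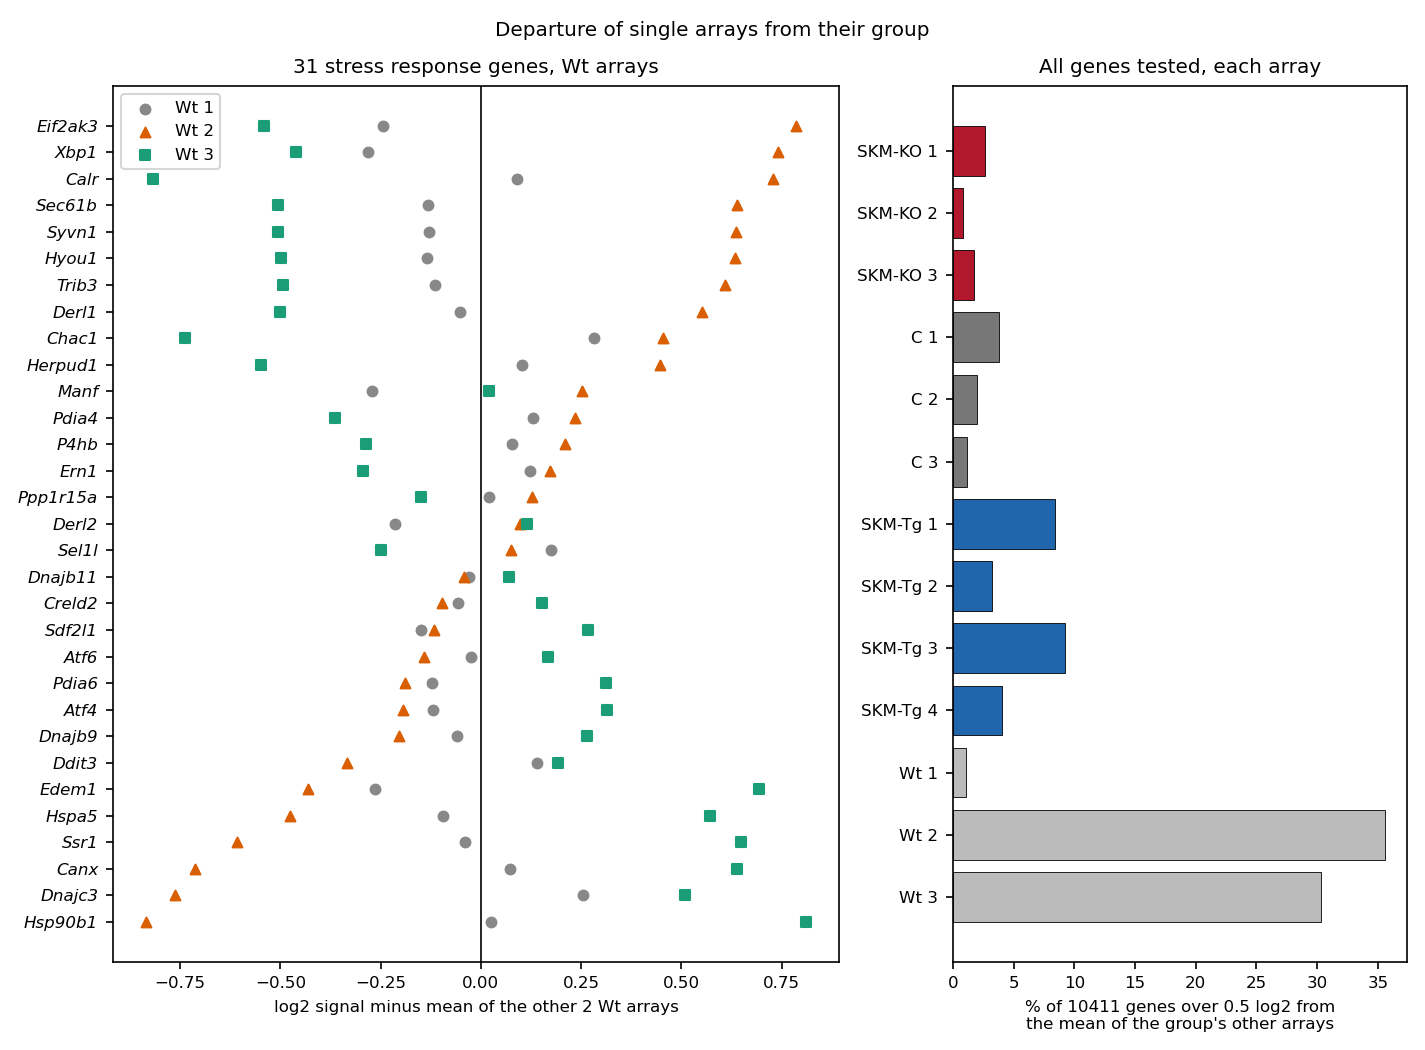
Left, the log2 signal of each of 31 stress response genes on each Wt array minus the mean of the other 2 Wt arrays; right, the percent of 10411 genes over 0.5 log2 from the mean of their group's other arrays. Wt array 2 (triangles) and Wt array 3 (squares) lie on opposite sides for most genes, and both have over 30% of genes departing.

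In SKM-KO muscle, none of the 31 members passed the test against C at an adjusted p of 0.05. Trp53inp2 alone did among all genes, which is 0.00961% of those tested. At an unadjusted p of 0.05 the count of members was also 0, with 0.557% of all genes past it. The differences were small in both directions: 21 members had a higher mean in SKM-KO muscle, where 54% of all genes did, and 10 had a lower mean, where 46% did. Their median difference was 0.05 on the log2 scale, beside 0.01 over all genes. The largest in either direction were 0.33 for Edem1 and -0.26 for Trib3. The balance depended on single arrays: without C array 1, 16 members had a lower mean and the median was -0.0064. Without SKM-KO array 1, 4 members had a lower mean, and without C array 2, 5 did. With 1 array left out at a time, the median ran from -0.0064 to 0.098.

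In SKM-Tg muscle, none of the 31 members passed the test against Wt at an adjusted p of 0.05, and no gene at all did (0%). At an unadjusted p of 0.05, 2 members, Xbp1 and P4hb, were lower, where 5.39% of all genes were. None was higher, where 1.5% of all genes were. In all, 26 members had a lower mean in SKM-Tg muscle, where 62.2% of all genes did, and 5 had a higher mean, where 37.8% did. The 5 were Chac1, Ddit3, Dnajc3, Edem1 and Ssr1. The median difference was -0.17, beside -0.05 over all genes. Without Wt array 2, 27 members had a lower mean, and without Wt array 3, 24 did; none was called in either case. With array quality weights, 5 members were called lower (Ern1 -0.54, Xbp1 -0.63, Calr -0.51, P4hb -0.35 and Sel1l -0.21), among 1492 genes (14.3%). The weights were 7.21 on Wt array 1, 0.147 on Wt array 2 and 0.230 on Wt array 3. The weighted Wt mean thus rested mostly on 1 animal. With Wt arrays 2 and 3 left out, these values were Ern1 -0.46, Xbp1 -0.49, Calr -0.46, P4hb -0.32 and Sel1l -0.23. In bulk tissue, fewer cells of a type and less RNA per cell cannot be told apart.

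**Figure D2:**
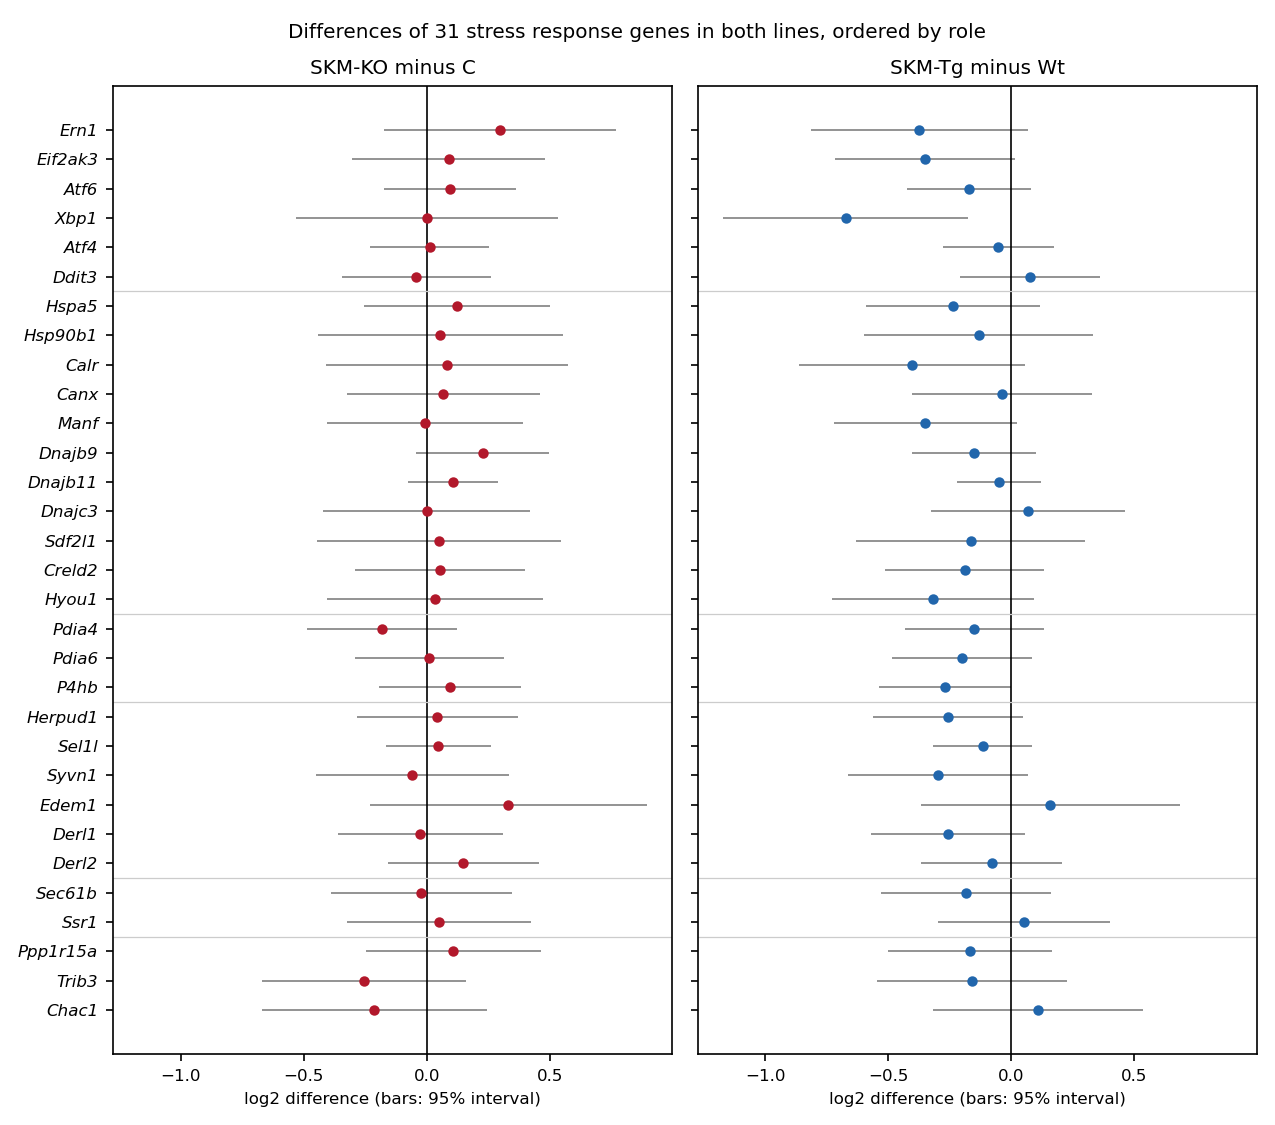
Log2 differences of 31 members with 95% intervals from the limma fit, SKM-KO minus C on the left and SKM-Tg minus Wt on the right, with grey lines between roles. On the left every interval spans 0; on the right most points lie below 0, and the intervals of Xbp1 and P4hb end below it.

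Among the sensors and transcription factors, 4 of 6 had a higher mean in SKM-KO muscle than in C, with a median difference of 0.05. In SKM-Tg muscle, 5 of 6 had a lower mean than in Wt, with a median of -0.26. None of the 6 passed the adjusted test in either comparison.

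Ern1 encodes IRE1, the kinase and RNase that splices Xbp1. Its log2 signals were 7.64, 8.04 and 7.80 in SKM-KO muscle, against 7.11, 7.65 and 7.82 in C muscle. C array 1 was the lowest and the groups overlapped (difference 0.30, SE 0.22, limma adjusted p = 1). The value was 0.089 without C array 1 and 0.051 with probe sets averaged. The signals were 7.17, 7.35, 7.69 and 7.97 in SKM-Tg muscle, against 8.0003, 8.03 and 7.72 in Wt muscle. SKM-Tg arrays 1, 2 and 3 lay below every Wt array, array 3 narrowly, while SKM-Tg array 4 lay among them (difference -0.37, SE 0.20, limma adjusted p = 0.702).

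Eif2ak3 encodes PERK, the eIF2alpha kinase of the ER membrane. Its signals were 4.95, 5.05 and 4.78 in SKM-KO muscle, against 4.92, 4.74 and 4.85 in C muscle, and the groups overlapped (difference 0.09, SE 0.18, limma adjusted p = 1). They were 5.02, 4.91, 5.13 and 4.999 in SKM-Tg muscle, against 5.20, 5.89 and 5.01 in Wt muscle. Wt array 2 was the highest, and Wt array 3 fell within the SKM-Tg range (difference -0.35, SE 0.17, limma adjusted p = 0.702). Without Wt array 2 the difference was -0.09, and without Wt array 3 it was -0.53.

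Atf6 encodes the sensor whose cleaved fragment enters the nucleus. Its signals were 5.99, 6.09 and 6.29 in SKM-KO muscle, against 5.96, 5.95 and 6.18 in C muscle, with overlapping groups (difference 0.09, SE 0.12). In the other line they were 5.81, 5.81, 5.66 and 5.46 in SKM-Tg muscle, against 5.84, 5.76 and 5.97 in Wt muscle. SKM-Tg arrays 3 and 4 were the lowest, and arrays 1 and 2 lay within the Wt range (difference -0.17, SE 0.12, limma adjusted p = 0.702).

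Xbp1 encodes the transcription factor activated by IRE1 splicing. Its signals were 7.70, 7.95 and 7.74 in SKM-KO muscle, against 7.75, 7.80 and 7.83 in C muscle. The difference was under 0.01 in size, with a 95% interval of -0.53 to 0.53. That interval also holds the spread of the other groups. The standard deviation was 0.13 in SKM-KO and 0.039 in C muscle, against 0.46 in SKM-Tg and 0.43 in Wt muscle. In the gain-of-function comparison the signals were 7.23, 7.52, 8.24 and 7.98 in SKM-Tg muscle, against 8.23, 8.91 and 8.11 in Wt muscle. SKM-Tg arrays 1 and 2 lay well below all Wt arrays, array 4 just below, array 3 overlapped them, and Wt array 2 was the highest. The difference, -0.67 (SE 0.23), had a 95% interval of -1.17 to -0.18 and an unadjusted p of 0.0119, but a limma adjusted p of 0.702. It was -0.43 without Wt array 2, -0.83 without Wt array 3 (limma adjusted p = 0.0788) and -0.49 without both. The 3 other Xbp1 probe sets gave -0.70, -0.70 and -0.76, so the value did not rest on 1 probe set.

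Atf4 encodes the shared effector of the integrated stress response, whose own synthesis is set mainly at translation. Its mRNA signals were 9.002, 9.01 and 8.98 in SKM-KO muscle, against 8.80, 9.06 and 9.10 in C muscle, a difference of 0.01 with a 95% interval of -0.23 to 0.25 that turned sign with quantile normalization (-0.0080). They were 9.13, 9.08, 9.05 and 9.13 in SKM-Tg muscle, against 9.07, 9.02 and 9.36 in Wt muscle, a difference of -0.05 with an interval of -0.28 to 0.17. SKM-KO and SKM-Tg arrays were tightly grouped, and their controls spread around them.

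Ddit3 encodes CHOP, the factor tied to prolonged ER stress. Its signals were 6.99, 7.33 and 7.28 in SKM-KO muscle, against 7.04, 7.46 and 7.21 in C muscle, with overlapping groups (difference -0.04, SE 0.14). In the other line they were 7.25, 7.01, 7.23 and 7.17 in SKM-Tg muscle, against 7.18, 6.87 and 7.22 in Wt muscle. The low array was Wt array 2 and the groups overlapped (difference 0.07, SE 0.13).

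**Figure D3:**
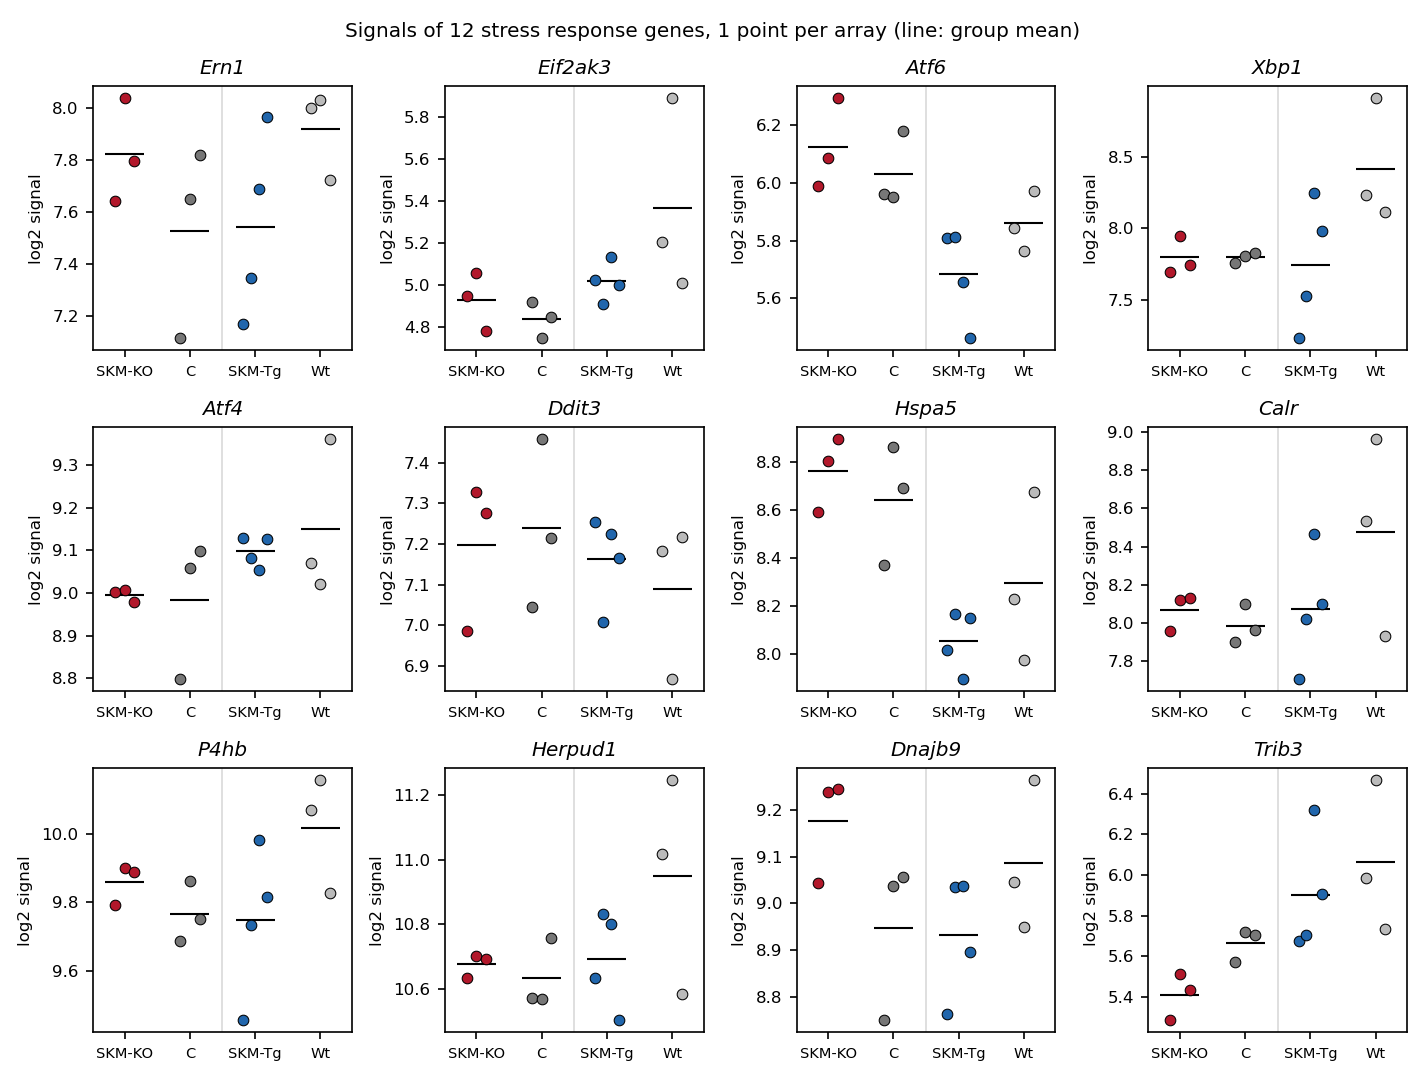
Log2 signals of 12 members, 1 point per array in the order of replicate number, with a line at each group mean; each panel has its own axis. Trib3 is the panel in which no SKM-KO point reaches the C points. The highest point is a Wt array in the Eif2ak3, Xbp1, Atf4, Calr, P4hb, Herpud1, Dnajb9 and Trib3 panels.

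Of the 11 chaperones and cochaperones, 9 had a higher mean in SKM-KO muscle than in C (median 0.055). In SKM-Tg muscle, 10 had a lower mean than in Wt (median -0.17). None passed the adjusted test in either comparison.

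Hspa5 encodes BiP, the main ER Hsp70 chaperone and the gene most used as a readout of the response. Its signals were 8.59, 8.80 and 8.89 in SKM-KO muscle, against 8.37, 8.86 and 8.69 in C muscle; C array 1 was the lowest and the groups overlapped (difference 0.12, SE 0.17). In the gain-of-function line they were 8.02, 8.17, 7.90 and 8.15 in SKM-Tg muscle, against 8.23, 7.98 and 8.68 in Wt muscle. All 4 SKM-Tg arrays lay below Wt arrays 1 and 3, and Wt array 2 fell within the SKM-Tg range (difference -0.24, SE 0.16, limma adjusted p = 0.702). The difference was -0.40 without Wt array 2 and -0.05 without Wt array 3. Its promoter window, which holds the element shown above, reads as follows, with the motif in capitals.
Hspa5 promoter (chr2:34771840-34772139, plus strand): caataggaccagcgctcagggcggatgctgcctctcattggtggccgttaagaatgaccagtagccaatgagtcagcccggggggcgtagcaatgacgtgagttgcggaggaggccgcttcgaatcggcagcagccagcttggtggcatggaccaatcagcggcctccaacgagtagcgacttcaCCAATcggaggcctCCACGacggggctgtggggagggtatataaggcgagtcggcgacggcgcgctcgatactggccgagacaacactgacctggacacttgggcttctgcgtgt

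Calr encodes calreticulin, a calcium-binding lectin chaperone of glycoproteins. Its signals were 7.96, 8.12 and 8.13 in SKM-KO muscle, against 7.90, 8.10 and 7.96 in C muscle, with overlapping groups (difference 0.08, SE 0.23). In the other comparison they were 7.71, 8.02, 8.47 and 8.10 in SKM-Tg muscle, against 8.54, 8.96 and 7.93 in Wt muscle. Wt array 2 was the highest and Wt array 3 lay below 3 SKM-Tg arrays (difference -0.40, SE 0.21, limma adjusted p = 0.702). Without Wt array 2 the difference was -0.16, and without Wt array 3 it was -0.68.

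Manf encodes a secreted ER-resident protective factor. Its signals were 7.78, 8.06 and 8.26 in SKM-KO muscle, against 7.61, 8.35 and 8.16 in C muscle, with the lowest value on C array 1 (difference -0.01, SE 0.18). They were 7.55, 7.59, 7.65 and 7.84 in SKM-Tg muscle, against 7.82, 8.17 and 8.02 in Wt muscle. SKM-Tg arrays 1, 2 and 3 lay below all Wt arrays, and SKM-Tg array 4 overlapped them by a narrow margin (difference -0.35, SE 0.17, limma adjusted p = 0.702). The difference moved less than that of Calr when Wt arrays were left out, to -0.27 without array 2 and -0.34 without array 3.

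Dnajb9 encodes ERdj4, a BiP cochaperone and IRE1-dependent target. Its signals were 9.04, 9.24 and 9.24 in SKM-KO muscle, against 8.75, 9.04 and 9.06 in C muscle. SKM-KO arrays 2 and 3 were above every C array, and SKM-KO array 1 lay within the C range. Of the members it had the smallest p in this comparison (difference 0.23, SE 0.12, 95% interval -0.04 to 0.50, limma adjusted p = 1), and its difference was 0.13 without C array 1. In the other line its signals were 8.76, 9.04, 9.04 and 8.90 in SKM-Tg muscle, against 9.05, 8.95 and 9.26 in Wt muscle, with overlapping groups (difference -0.15, SE 0.12).

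Dnajb11 encodes ERdj3, another BiP cochaperone, and carries the compact element shown above. Its signals were 8.43, 8.60 and 8.52 in SKM-KO muscle, against 8.33, 8.46 and 8.43 in C muscle; SKM-KO arrays 2 and 3 lay above all C arrays and array 1 did not (difference 0.11, SE 0.08). Signals were 8.19, 8.23, 8.18 and 8.21 in SKM-Tg muscle, against 8.23, 8.22 and 8.30 in Wt muscle, with overlapping groups (difference -0.05, SE 0.08; 0.023 with quantile normalization). Creld2, an ER-stress-induced disulfide isomerase-like protein, was the only member whose SKM-Tg arrays all lay below its Wt arrays, where 2.79% of all genes did so. Its signals were 7.28, 7.44, 7.37 and 7.503 in SKM-Tg muscle, against 7.55, 7.52 and 7.69 in Wt muscle (difference -0.19, SE 0.15, limma adjusted p = 0.715), the nearest arrays of the groups differing by only 0.022 log2. No member lay wholly higher, where 1.18% of all genes did.

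The remaining chaperones were Hsp90b1 (GRP94), the lectin Canx (calnexin), the BiP cochaperone Dnajc3, Sdf2l1 and the nucleotide exchange factor Hyou1. Their SKM-KO minus C differences ranged from below 0.01 in size for Dnajc3 to 0.07 for Canx. Their SKM-Tg minus Wt differences ran from -0.32 for Hyou1 to 0.07 for Dnajc3. That of Hyou1 was -0.11 without Wt array 2 and -0.48 without Wt array 3. Hsp90b1 was the member whose Wt arrays spread most widely, at 9.09, 8.51 and 9.61, against 8.64 to 9.26 in SKM-Tg muscle.

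Among the disulfide isomerases, which form and rearrange disulfide bonds in new proteins, 3 of 4 were bright enough to test. All 3 had a lower mean in SKM-Tg muscle (median -0.20), and 2 of 3 had a higher mean in SKM-KO muscle. P4hb, which encodes the main protein disulfide isomerase, read 9.45, 9.73, 9.98 and 9.82 in SKM-Tg muscle, against 10.07, 10.16 and 9.83 in Wt muscle. SKM-Tg array 3 lay within the Wt range and the others below it (difference -0.27, SE 0.12, limma adjusted p = 0.702). Without SKM-Tg array 1 the difference was -0.17. P4hb also read 9.79, 9.90 and 9.89 in SKM-KO muscle, against 9.69, 9.86 and 9.75 in C muscle, with overlapping groups (difference 0.09, SE 0.13). Pdia4 read 7.05, 7.22 and 7.23 in SKM-KO muscle, against 7.23, 7.46 and 7.36 in C muscle. SKM-KO arrays 1 and 2 lay below all C arrays, and array 3 lay only just above the lowest C array (difference -0.18, SE 0.14, limma adjusted p = 1). Pdia4 read 6.86, 7.25, 7.10 and 7.32 in SKM-Tg muscle, against 7.37, 7.44 and 7.04 in Wt muscle (difference -0.15, SE 0.13).

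Degradation of ER proteins extracts misfolded chains to the proteasome. In this group, 4 of 6 members had a higher mean in SKM-KO muscle, and 5 of 6 had a lower mean in SKM-Tg muscle (median -0.19); none passed the adjusted test. Herpud1, which holds the degradation complex together, read 10.63, 10.70 and 10.69 in SKM-KO muscle, against 10.57, 10.57 and 10.76 in C muscle (difference 0.04, SE 0.15). It read 10.63, 10.83, 10.80 and 10.50 in SKM-Tg muscle, against 11.02, 11.25 and 10.58 in Wt muscle. Wt arrays 1 and 2 lay above every SKM-Tg array, and Wt array 3 lay near the bottom of their range (difference -0.26, SE 0.14, limma adjusted p = 0.702). Its value was -0.11 without Wt array 2 and -0.44 without Wt array 3. Herpud1's window holds both elements, and is given whole; the capitals mark an ATF4-type motif on the opposite strand followed by the compact ER stress element.
Herpud1 promoter (chr8:94386179-94386478, plus strand): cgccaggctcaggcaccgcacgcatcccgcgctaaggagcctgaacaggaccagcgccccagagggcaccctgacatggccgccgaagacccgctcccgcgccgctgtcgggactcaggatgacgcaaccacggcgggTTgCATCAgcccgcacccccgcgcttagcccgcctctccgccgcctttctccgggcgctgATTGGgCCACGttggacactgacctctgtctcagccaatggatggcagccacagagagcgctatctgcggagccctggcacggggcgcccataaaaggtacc

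Derl1 and Derl2 encode derlins, membrane proteins of the exit channel. Derl1 signals were 8.33, 8.62, 8.67 and 8.39 in SKM-Tg muscle, against 8.72, 9.13 and 8.42 in Wt muscle, with Wt array 2 above all other arrays (difference -0.26, SE 0.14). Without that array the difference was -0.07, and without Wt array 3 it was -0.42. In the other line Derl1 signals were 8.52, 8.49 and 8.56 in SKM-KO muscle, against 8.60, 8.48 and 8.56 in C muscle (difference -0.03, SE 0.15). Derl2 signals were 7.74, 8.12 and 8.04 in SKM-KO muscle, against 7.60, 7.95 and 7.91 in C muscle, with overlapping groups (difference 0.15, SE 0.14; 0.039 without C array 1). For the gain-of-function line they were 7.62, 7.78, 7.98 and 7.98 in SKM-Tg muscle, against 7.78, 7.99 and 7.998 in Wt muscle, again overlapping (difference -0.08, SE 0.13).

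Edem1 encodes a lectin that hands misfolded glycoproteins to the degradation machinery. Its signals were 6.34, 6.27 and 6.18 in SKM-KO muscle, against 5.22, 6.15 and 6.42 in C muscle. C array 1 was low, and the other C arrays overlapped the SKM-KO arrays (difference 0.33, SE 0.26, limma adjusted p = 1). The value was -0.02 without C array 1. In the other line signals were 6.24, 6.29, 6.51 and 6.38 in SKM-Tg muscle, against 6.03, 5.91 and 6.66 in Wt muscle, with overlapping groups (difference 0.16, SE 0.24; 0.013 without Wt array 2 and 0.39 without Wt array 3). Sel1l and Syvn1, the core of the HRD1 ligase complex, had SKM-KO minus C values of 0.05 and -0.06, and SKM-Tg minus Wt values of -0.12 and -0.30. That of Syvn1 was -0.086 without Wt array 2 and -0.47 without Wt array 3.

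Sec61b and Ssr1 belong to the translocon, through which new proteins enter the ER. Their SKM-KO minus C differences were -0.02 and 0.05, and their SKM-Tg minus Wt differences were -0.18 and 0.05; neither passed the test. Without Wt array 2, that of Sec61b was 0.028.

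Of the 4 ATF4 and CHOP targets, 3 were tested; 2 had a lower mean in SKM-KO muscle (median -0.21) and 2 in SKM-Tg muscle (median -0.16). Trib3, a pseudokinase that feeds back on ATF4, read 5.28, 5.51 and 5.44 in SKM-KO muscle, against 5.57, 5.72 and 5.70 in C muscle. Every SKM-KO array lay below every C array (difference -0.26, SE 0.19, 95% interval -0.67 to 0.16, limma adjusted p = 1). Trib3 was the only member so separated, where 2.83% of all genes lay wholly lower and 4.66% wholly higher. The gap between nearest arrays was 0.063 log2. Its standard deviation was 0.12 in SKM-KO and 0.080 in C muscle, against 0.30 in SKM-Tg and 0.37 in Wt muscle. The SE above holds the spread of all groups. Trib3 in the other line read 5.68, 5.70, 6.32 and 5.91 in SKM-Tg muscle, against 5.99, 6.47 and 5.73 in Wt muscle, with overlapping groups (difference -0.16, SE 0.18; 0.043 without Wt array 2).

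Chac1, a glutathione-degrading enzyme, read 10.13, 10.46 and 10.19 in SKM-KO muscle, against 10.41, 10.35 and 10.66 in C muscle, with SKM-KO arrays 1 and 3 below every C array (difference -0.21, SE 0.21, limma adjusted p = 1). It read 10.43, 10.55, 11.08 and 10.77 in SKM-Tg muscle, against 10.79, 10.90 and 10.11 in Wt muscle. Wt array 3 was the lowest of these and the groups overlapped (difference 0.11, SE 0.20). Ppp1r15a, encoding GADD34, which brings phosphatase to eIF2alpha, gave 0.11 (SE 0.16) for SKM-KO minus C and -0.17 (SE 0.15) for SKM-Tg minus Wt. Asns and Pdia3 were below the filter: Asns averaged 3.99 in SKM-KO and 4.05 in C muscle, and Pdia3 averaged 4.71 in SKM-KO and 4.58 in C muscle. Neither was tested.

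The members can also be split by the elements shown above. Among the 10 with either form of the ER stress element, 8 had a higher mean in SKM-KO muscle (median 0.05) and 9 had a lower mean in SKM-Tg muscle (median -0.20). Among the 17 tested members whose windows lacked both, 11 had a higher mean in SKM-KO muscle (median 0.05) and 13 a lower one in SKM-Tg muscle (median -0.15). On Wt array 2 the 10 split 3 above and 7 below the other Wt arrays, from -0.84 to 0.73, so members sharing the element did not share a direction there.

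The effects of the 2 lines were also compared with each other, as SKM-Tg minus Wt less SKM-KO minus C. No member passed the adjusted test, and 2 of all genes did (0.0192%). At an unadjusted p of 0.05, 2 members were lower, where 2.36% of all genes were. They were Ern1 (-0.67, SE 0.30) and Dnajb9 (-0.38, SE 0.17), each with a limma adjusted p of 0.989. In all, 25 members had a negative value, where 61.7% of all genes did, with a median of -0.23 beside -0.06 over all genes. Each value carries the spread of all 4 groups.

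The 2 control groups were also set against each other, Wt minus C. None of the 31 members passed the adjusted test, where 0.00961% of all genes did. Without Wt array 3, 14 members did, where 39.6% of all genes did. With array quality weights, which rest the Wt mean mostly on Wt array 1, 22 did, where 55.6% of all genes did. At an unadjusted p of 0.05, however, 8 members differed, where 27.8% of all genes did. Eif2ak3, Hyou1, Ppp1r15a and Xbp1 were higher in Wt (16.2% of all genes), and Canx, Dnajc3, Hsp90b1 and Ssr1 were lower (11.6%). These shares are close to the background, 8 of 31 against 27.8%. In all, 18 members had a higher mean in Wt, where 58.8% of all genes did. Ppp1r15a had the smallest p. Its signals were 8.34, 8.41 and 8.22 in Wt muscle, against 7.42, 7.72 and 7.54 in C muscle. Every Wt array lay above every C array (difference 0.76, SE 0.16, limma adjusted p = 0.144). In all, 6 members lay wholly higher in Wt (Eif2ak3, Hyou1, Ppp1r15a, Syvn1, Trib3 and Xbp1), where 15.4% of all genes did, and Dnajb11 wholly lower, where 8.51% did. For Syvn1 the lowest Wt array lay barely above the highest C array (7.461 against 7.452), as for Trib3 (5.733 against 5.719). Their unadjusted limma p-values were 0.052 and 0.059. Xbp1 was 0.62 above C in Wt muscle, and 0.38 without Wt array 2; SKM-Tg muscle averaged 7.74 beside 7.79 in C. Without Wt array 2, Eif2ak3 was 0.27, Hyou1 0.24, Canx -0.17, Dnajc3 -0.26, Hsp90b1 -0.23 and Ssr1 -0.18 for Wt minus C, against 0.53, 0.45, -0.41, -0.51, -0.51 and -0.39 with all arrays. The labels give no batch, so line and any batch shared by a line's animals cannot be told apart.

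Other genes of the pathways were taken from wider lists. Of 55 further unfolded protein response and ER degradation genes measured, 53 were tested. None passed the adjusted test in either line, and 35 of 53 had a higher mean in SKM-KO muscle, where 54% of all genes did (median 0.04). In SKM-Tg muscle 38 of 53 had a lower mean, where 62.2% of all genes did (median -0.18), 6 of them at an unadjusted p of 0.05, where 5.39% of all genes were lower. The smallest p-values in SKM-Tg muscle were those of Hspa13 (-0.37), Ganab (-0.30), which trims glycans, Creb3 (-0.28) and Creb3l2 (-0.32), membrane-bound transcription factors related to ATF6. In SKM-KO muscle they were those of Spcs3 (0.23), Stt3a (0.17), Uggt1 (-0.14) and Sec24d (0.18).

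Of 42 further integrated stress response genes, 36 were tested and none passed in either line. Of these, 21 had a higher mean in SKM-KO muscle (median 0.015), where 54% of all genes did. In SKM-Tg muscle 20 of 36 had a lower mean, where 62.2% of all genes did (median -0.05). Of the 36, 2 were lower at an unadjusted p of 0.05, close to the 5.39% of all genes. The smallest p-values in SKM-Tg muscle belonged to the amino acid transporter genes Slc7a1 (-0.31) and Slc3a2 (-0.35), Eif2b4 (-0.31) and Gpt2 (0.29). In SKM-KO muscle they belonged to Ppp1r15b (0.17), the kinase gene Eif2ak4 (0.17), Ddit4 (0.47) and Phgdh (-0.16).

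Of the 31 tested members, 15 had several probe sets past the filter. All probe sets of a gene had the same sign in 6 of the 15 genes for SKM-KO minus C, and in 11 of 15 for SKM-Tg minus Wt. The 4 with mixed signs in SKM-Tg muscle were Dnajc3, Edem1, Ern1 and Ssr1. For Ern1, the probe sets past the filter gave -0.37, -0.50 and 0.27, so the direction of its SKM-Tg value depends on the probe set.

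**Figure D4:**
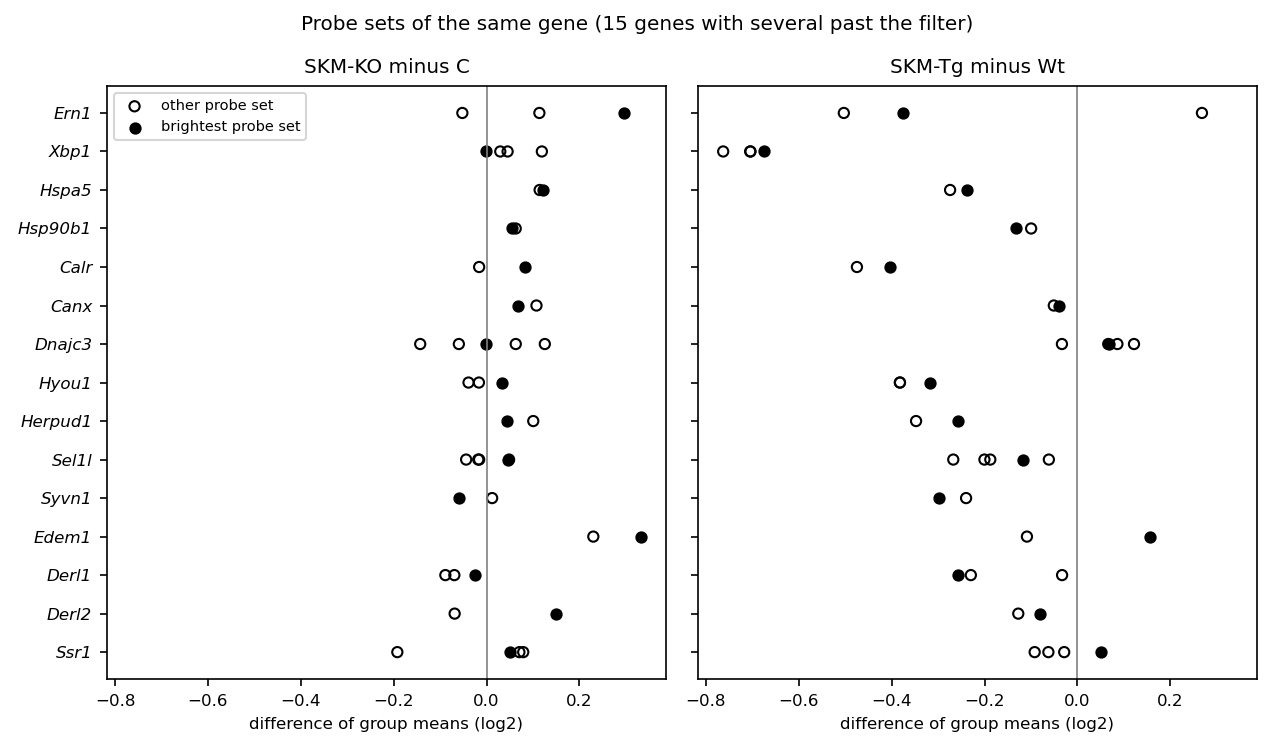
Differences of group means in log2 for each probe set of the 15 members with several past the filter; filled points are the brightest probe set, used in the text, and open points the others. In SKM-Tg muscle, the 4 Xbp1 probe sets lie together between -0.76 and -0.67, while those of Ern1 lie on both sides of 0.

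Markers of other cell types were read beside the members. Mean log2 signals of the macrophage markers were 6.21 to 6.46 on SKM-KO arrays and 5.86 to 6.29 on C arrays, with all 11 tested markers positive for SKM-KO minus C. They were 5.59 to 6.31 on SKM-Tg arrays and 5.96 to 6.34 on Wt arrays, with 10 of 11 negative. Of all genes, 54% were positive for SKM-KO minus C and 62.2% were negative for SKM-Tg minus Wt. Endothelial markers were 8.09 to 8.56 on SKM-Tg and 8.48 to 8.62 on Wt arrays, with 7 of 8 negative; on SKM-KO arrays they were 8.29 to 8.45 and on C arrays 8.37 to 8.55, also with 7 of 8 negative. Fibroblast markers were 7.86 to 8.25 on SKM-KO and 7.82 to 8.10 on C arrays, with 6 of 8 positive, and 7.58 to 7.87 on SKM-Tg and 7.64 to 7.94 on Wt arrays, with 5 of 8 negative. The mean of 4 Schwann cell markers, with S100b below the filter, was wholly higher on SKM-KO arrays (6.15 to 6.57) than on C arrays (6.00 to 6.09). All 3 tested markers were positive. The mean was 6.11 to 6.78 on SKM-Tg and 6.27 to 6.67 on Wt arrays. Smooth muscle markers were 8.43 to 8.53 on SKM-KO and 8.38 to 8.44 on C arrays, and 8.19 to 8.48 on SKM-Tg and 8.36 to 8.54 on Wt arrays. Fat cell markers were 6.55 to 7.86 on SKM-KO and 6.65 to 6.88 on C arrays, and 7.73 to 8.97 on SKM-Tg and 6.74 to 7.93 on Wt arrays. Plasma cells are rich in ER; 3 of the 4 plasma cell markers measured were below the filter, Jchain at 2.77, as were 4 of 5 satellite cell markers and 4 of 5 neutrophil and mast cell markers. The part of these cells in the members' values was not tested.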

How the data were processed

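Quadriceps RNA of 13 mice (25 ng per sample, isothermal amplification) was hybridised to 1 array each, per the labels' protocols. The deposited table holds log2 signals of 45141 probe sets that the authors made with RMA, per the submitters' processing notes; a genome build is not given in the sources used here. RMA shares scale and probe fits among arrays, so a departing array is scaled but not removed. Signals ranged from 2.14 to 13.21 and were used as deposited; the number of arrays limits precision.

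Of 45037 non-control probe sets, 28898 had 1 gene symbol in the platform annotation, 551 several and 15588 none. The brightest probe set per gene was kept, at or above a mean of 4.90. The fit was made with limma 3.58.1 in R 4.3.3 (lmFit, eBayes, 1 mean per group over all 13 arrays, 9 residual and 3.62 prior degrees of freedom), with Benjamini-Hochberg adjustment over 10411 genes. The fit was tried on simulated data in which each gene had the same spread in every group. That simulation therefore left out the wider spread of the Wt arrays. Replicates are separate animals. Alternatives were normalization, filter, probe set rule, moderation, array weights, separate fits and leaving out arrays.

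Every array's signals are printed for the sensors, the factors, Hspa5 and the 8 members with the smallest p in each line; up to 4 genes of each wider list are named by p. Creld2, Ppp1r15a and Hsp90b1 were added after their values were seen. The members and lists were chosen with earlier results of these data known. Promoter windows came from RefSeq (GRCm38.p6).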

Additional observations from a re-analysis of the deposited data

Results flagged for a closer look

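The Sel1l signal of SKM-Tg array 4, 8.70, lay far below the other SKM-Tg arrays, its gap being 0.887 of the group's range. Of 33 members checked in SKM-Tg muscle it was the 1 so flagged, and chance flags about 1 in 20 groups.

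For 4 members, every SKM-KO array lay on one side of the mean of C and every SKM-Tg array on the other side of the mean of Wt. The share of all genes meeting this rule was not counted, so the 4 cannot be set against a background. For Herpud1, the lowest SKM-KO array (10.6323) lay barely above the mean of C (10.6318). The difference between the effects of the lines was -0.38 for Dnajb9, -0.16 for Dnajb11, -0.36 for P4hb and -0.30 for Herpud1. The tests of these differences did not pass (limma adjusted p = 0.989 for each).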

How the results depend on the processing

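No member of the 31 was called in SKM-KO minus C under any alternative. In SKM-Tg minus Wt, members were called in 1 setting: array quality weights, which gave Wt arrays 2 and 3 weights of 0.147 and 0.230 beside 7.21 for Wt array 1, called 5 members (Ern1, Xbp1, Calr, P4hb and Sel1l) and 1492 genes. The same weights called 2 of 31 members and 231 of 10411 genes in the difference of effects. In Wt minus C they called 22 of 31 members and 5787 of 10411 genes, and the members' median moved to 0.0026. Genes called in SKM-Tg minus Wt were 0 to 30 when 1 array was left out, 30 being without Wt array 3, and 1 without both Wt arrays 2 and 3, an alternative chosen after seeing the data. Without Wt array 3, Wt minus C called 4119 genes and 14 members; over single arrays left out these counts ran from 0 to 4119 and from 0 to 14. Without both Wt arrays it called 44 genes; with quantile or cyclic loess normalization, no filter or a separate fit it called 0, and with the mean of probe sets 2. SKM-KO minus C called 2 genes with the mean of probe sets. The difference of effects called 1 gene with median centring, with the filter at the 75th percentile and without both Wt arrays, and 1 to 2 when 1 array was left out. The cause of these changes was not tested.

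For SKM-KO minus C, the sign turned for the following members. With array quality weights Xbp1 was 0.016, Atf4 was -0.049, Sdf2l1 was -0.055 and Sec61b was 0.034. With cyclic loess normalization Atf4 was -0.0011 and Pdia6 was -0.0022. With probe sets averaged Xbp1 was 0.049, Atf4 was -0.071 and Hyou1 was -0.0071. With median centring Xbp1 was 0.0025 and Dnajc3 was 0.0025. With quantile normalization Atf4 was -0.0080 and Pdia6 was -0.015. Leaving out 1 array at a time turned the sign in part of the range, which was -0.082 to 0.069 for Atf4, -0.012 to 0.23 for Hspa5, -0.043 to 0.13 for Hsp90b1, -0.23 to 0.23 for Sdf2l1, -0.11 to 0.21 for Creld2, -0.015 to 0.098 for Hyou1, -0.12 to 0.093 for Pdia6, -0.021 to 0.57 for Edem1, -0.061 to 0.0022 for Derl1, -0.081 to 0.0078 for Sec61b, -0.076 to 0.049 for Xbp1, -0.14 to 0.067 for Ddit3, -0.23 to 0.15 for Manf, -0.091 to 0.070 for Dnajc3 and -0.10 to 0.0064 for Syvn1. For SKM-Tg minus Wt, the sign turned for the following members. With array quality weights Atf4 was 0.017, Ddit3 was -0.068, Dnajc3 was -0.055, Derl2 was 0.014 and Chac1 was -0.15. With cyclic loess normalization Canx was 0.0097 and Dnajb11 was 0.0098. With probe sets averaged Ssr1 was -0.033. With quantile normalization Atf4 was 0.0019, Canx was 0.014 and Dnajb11 was 0.023. Without both Wt arrays 2 and 3 Atf4 was 0.026, Ddit3 was -0.020, Dnajc3 was -0.10, Derl2 was 0.062 and Chac1 was -0.080. Leaving out 1 array at a time turned the sign in part of the range, which was -0.037 to 0.14 for Ddit3, -0.19 to 0.24 for Dnajc3, -0.35 to 0.028 for Sec61b, -0.15 to 0.27 for Ssr1, -0.32 to 0.043 for Trib3, -0.17 to 0.064 for Trp53inp2, -0.12 to 0.051 for Atf4, -0.41 to 0.14 for Hsp90b1, -0.28 to 0.17 for Canx and -0.14 to 0.26 for Chac1. The number of members with a lower mean in SKM-KO muscle was 16 without C array 1, 5 without C array 2 and 4 without SKM-KO array 1. Over the members and settings other than single arrays left out, 260 values for SKM-KO minus C kept direction and side of the threshold and 13 turned sign. For SKM-Tg minus Wt, which had 1 more setting (without both Wt arrays), 283 kept both, 16 turned sign and 5 were newly called. No paired analysis was made, because no label pairs animals of different groups. The titles carry a number per animal, some of them near each other in C and SKM-KO. No number is shared between groups, and no label says what near numbers mean. The difference of effects has no separate fit, since it needs all 4 groups. With 3 or 4 arrays a group, the half-width of the members' 95% intervals ran from 0.18 to 0.56 log2 for SKM-KO minus C. It ran from 0.17 to 0.53 for SKM-Tg minus Wt. Both hold the spread of all 13 arrays, Wt arrays 2 and 3 included.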

Other observations

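The wider lists were also read between the control groups. In Wt muscle, Ppp1r15b, the constitutive partner of the eIF2alpha phosphatase, lay 0.36 above C, the transcription factor gene Cebpb 0.61, the serine synthesis gene Psat1 0.48 and the transporter gene Slc3a2 0.63, with limma adjusted p-values of 0.144 to 0.145. Of the 36 wider integrated stress response genes tested, 28 had a higher mean in Wt than in C, where 58.8% of all genes did. Of the 36, 13 were higher and 2 were lower at an unadjusted p of 0.05, where 16.2% and 11.6% of all genes were. The median difference was 0.27, beside 0.06 over all genes. Among the 53 wider unfolded protein response genes, 30 had a higher mean in Wt (median 0.10), where 58.8% of all genes did. At an unadjusted p of 0.05, 13 were higher and 9 were lower, where 16.2% and 11.6% of all genes were. The smallest p-values were those of Selenos (-0.60), Bet1 (-0.56), Kdelr2 (0.33), the gene of a receptor that returns proteins to the ER, and Sec62 (-0.87), a translocon gene. Wt arrays 2 and 3 departed from their group in over 30% of genes, and their part in these values was not tested.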
